A study of Mus musculus with 12 samples.

Results

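The small leucine-rich proteoglycans (SLRPs) studied here were Ogn, Aspn, Omd, Dcn, Lum, Bgn, Fmod and Prelp, 8 genes of the 16475 probe sets measured on every array. Each had 1 probe set. They were chosen by family membership, with earlier results of these arrays known: Ogn, Aspn and Omd were selected on their higher level with RSL in the IER2-inducible clone and not in parental cells. The levels and RSL effects of the 8 genes are therefore given as a description, without a test. Among the 8, tests are kept for the comparison of the cell lines in the members not so selected.

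The study profiled NIH 3T3 mouse fibroblasts, an established line, on 12 Affymetrix expression arrays in 4 groups of 3 labelled replicates. The 3T3-ind-IER2 #11 cells (hereafter #11 cells) are NIH 3T3 cells carrying the plasmids pNEBR-R1, which encodes the ligand-responsive regulators, and pNEBR-Ier2-hygro, so that RheoSwitch ligand RSL-1 (RSL), a diacylhydrazine, drives expression of mouse Ier2, an immediate early gene. The 4 groups were parental cells with the solvent DMSO, parental cells with RSL, #11 cells with DMSO and #11 cells with RSL, where RSL was given at 200 nM and treatment lasted 24 h. The growth protocol in the labels names G418 and hygromycin for all 12 samples and does not say whether the parental cells carried pNEBR-R1. The inducible cells are 1 clone, so a difference between #11 and parental cells cannot be told apart from a difference of that clone, and the ligand was compared with its solvent in both lines. The labels call the 3 arrays of each group biological replicates, and do not say whether these were cultured on separate occasions.

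The labels were checked first, and 1 gene went against them. On the Ier2 probe set, the log2 levels (brightness of the probe set on a log scale, comparable between arrays and not between genes) in #11 cells were 9.07, 9.04 and 8.96 with DMSO and 8.50, 8.48 and 8.66 on the arrays labelled RSL. Ier2 was thus lower on the arrays labelled RSL, at -0.47 (SE 0.050, adjusted p = 4.64e-05, limma with Benjamini-Hochberg adjustment). In parental cells its levels were 8.60, 8.61 and 8.53 with DMSO and 8.82, 8.74 and 8.67 with RSL. By the same fit Ier2 was higher in #11 than in parental cells under DMSO, by 0.45 (SE 0.050, adjusted p = 3.24e-06). Under RSL it was lower in #11 cells, at -0.20 (SE 0.050, adjusted p = 0.00533). No source used here says whether this probe set reads the introduced Ier2 copy, so it does not settle the labels, and directions below rest on the arrays as labelled. The study also measured IER2 in this clone by qRT-PCR and Western blot, assays that were not analysed here. Egr1, an immediate early transcription factor, was also lower on the #11 arrays labelled RSL, at -1.18 (SE 0.14, adjusted p = 0.000198). In parental cells Egr1 was at 0.78 with RSL (SE 0.14, not called). No source used here gives a direction of Egr1 with RSL, so it does not check the labels. Array medians ran from 7.03 to 7.06, arrays of 1 group correlated at 0.998 to 0.999 over all probe sets, and of the 10 fibroblast markers none was below the first quartile of its array on all 12 arrays.

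SLRPs are secreted proteins of the extracellular matrix. Their core is a curved stack of leucine-rich repeats that binds collagen, and most carry sulfated sugar chains. Decorin (Dcn) and biglycan (Bgn) bear chondroitin or dermatan sulfate, while lumican (Lum), fibromodulin (Fmod), osteomodulin (Omd, also called osteoadherin) and osteoglycin (Ogn, also called mimecan) can bear keratan sulfate. Asporin (Aspn) is close to decorin and biglycan in sequence but has a run of aspartate in place of the chain attachment site, and PRELP (Prelp) has a basic end that binds heparan sulfate. In connective tissue these proteins set the thickness and spacing of collagen fibrils and bind growth factors such as TGF-beta, and osteoglycin, osteomodulin and asporin were first studied in bone, cartilage and the tissue around teeth.

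The upstream sequences of the 3 chosen genes and of Bgn are shown because the first 3 lie side by side on chromosome 13 and moved together, and Bgn, on chromosome X, was the member with the largest difference between the lines under DMSO. Each is the 250 bases before the RefSeq transcript start on GRCm38.p6, read 5' to 3' on the gene's strand, which is the plus strand for all 4. The windows are chr13:49607765-49608014 for Ogn, chr13:49544193-49544442 for Aspn, chr13:49582212-49582461 for Omd and chrX:73483351-73483600 for Bgn. Capitals mark matches, on either strand, to the motifs searched: the TATA box TATAAA, the CCAAT box CCAAT, the GC box GGGCGG, AP-1 TGANTCA, EGR GCGNGGGCG and the E-box CACGTG.
Ogn: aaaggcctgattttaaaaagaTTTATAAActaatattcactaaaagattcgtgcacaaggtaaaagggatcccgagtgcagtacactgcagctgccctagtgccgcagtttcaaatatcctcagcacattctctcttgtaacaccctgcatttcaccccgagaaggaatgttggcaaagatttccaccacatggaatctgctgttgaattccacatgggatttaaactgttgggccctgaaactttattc
Aspn: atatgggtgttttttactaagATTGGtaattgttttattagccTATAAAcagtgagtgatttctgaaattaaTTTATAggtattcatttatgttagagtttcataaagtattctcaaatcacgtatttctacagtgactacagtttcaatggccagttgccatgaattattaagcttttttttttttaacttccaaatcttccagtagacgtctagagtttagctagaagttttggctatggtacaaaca
Omd: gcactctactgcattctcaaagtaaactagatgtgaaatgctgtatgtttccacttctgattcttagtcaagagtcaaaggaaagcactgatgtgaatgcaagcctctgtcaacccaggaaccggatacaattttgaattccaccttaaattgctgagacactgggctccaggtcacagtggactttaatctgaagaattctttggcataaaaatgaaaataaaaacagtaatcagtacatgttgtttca
Bgn: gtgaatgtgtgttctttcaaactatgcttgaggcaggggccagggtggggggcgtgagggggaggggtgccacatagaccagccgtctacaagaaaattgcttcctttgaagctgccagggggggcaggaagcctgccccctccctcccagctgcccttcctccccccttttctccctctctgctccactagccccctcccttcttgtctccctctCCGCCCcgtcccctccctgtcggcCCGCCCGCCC

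The 3 chromosome 13 windows were poorer in G and C than the Bgn window. G and C made up 42% of the Ogn window, 30% of that of Aspn and 38.4% of that of Omd, against 64.4% for Bgn, where the quartiles over all 32851 RefSeq promoter windows were 45.2%, 52.4% and 61.2%. CpG dinucleotides numbered 4, 2, 1 and 7 in the same order, against a median of 6 over all windows. Of the 8 genes, 6 matched the promoter table (Ogn, Aspn, Omd, Bgn, Fmod and Prelp).

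The motifs differed between the windows too. TATAAA was present at -229 to -222 from the start in Ogn, as 2 overlapping matches, and at -207 to -202 and -178 to -173 in Aspn, against 12.4% of all windows. CCAAT was found in Aspn and Prelp (33.8% of all windows) and GGGCGG in Bgn alone of the 6, with 3 matches of which 2 overlap (32.7% of all windows). The AP-1, EGR and E-box letters were in none of the 6 windows, and in 6.75%, 4.7% and 6.02% of all windows. Omd held none of the 6 motifs. A match is a description of these letters and not a site of binding.

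Ogn was highest in #11 cells with RSL and lowest in parental cells with RSL. Its log2 levels were 8.91, 9.12 and 9.06 in parental cells with DMSO and 8.83, 8.86 and 8.87 in parental cells with RSL. In #11 cells they were 8.97, 8.97 and 9.13 with DMSO and 9.56, 9.62 and 9.48 with RSL. The 3 #11 arrays labelled RSL lay above all other 9 arrays, and the 3 parental arrays with RSL lay below the other 9. The group means, from low to high, were 8.85 ± 0.02 for parental RSL, 9.02 ± 0.09 for #11 DMSO, 9.03 ± 0.11 for parental DMSO and 9.55 ± 0.07 for #11 RSL (SD, n = 3), and only #11 DMSO and parental DMSO, next to each other in that order, overlapped.

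Aspn gave low signal outside the #11 cells with RSL. Its log2 levels in parental cells were 5.75, 5.62 and 5.63 with DMSO and 5.70, 5.75 and 5.67 with RSL. In #11 cells they were 5.80, 5.90 and 5.90 with DMSO and 6.36, 6.44 and 6.24 with RSL. The 9 arrays other than those of #11 RSL were all below the tenth percentile of their array (5.94 to 5.98), and 1 of the 3 #11 RSL arrays was below its first quartile (6.23 to 6.30), so the low end of this range is near the arrays' floor and a fold change there may be understated. The parental groups overlapped with each other, at means of 5.67 ± 0.07 and 5.71 ± 0.04, and lay below #11 DMSO at 5.86 ± 0.05 and #11 RSL at 6.35 ± 0.10 (SD, n = 3).

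Omd was also highest in #11 cells with RSL. Its log2 levels in parental cells were 6.90, 7.02 and 6.996 with DMSO and 6.85, 6.88 and 6.94 with RSL. In #11 cells they were 7.08, 7.15 and 7.05 with DMSO and 7.47, 7.47 and 7.41 with RSL. The parental groups overlapped, at 6.97 ± 0.07 and 6.89 ± 0.05, and #11 DMSO, at 7.09 ± 0.05, and #11 RSL, at 7.45 ± 0.03 (SD, n = 3), each lay above them without overlap.

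**Figure D1:**
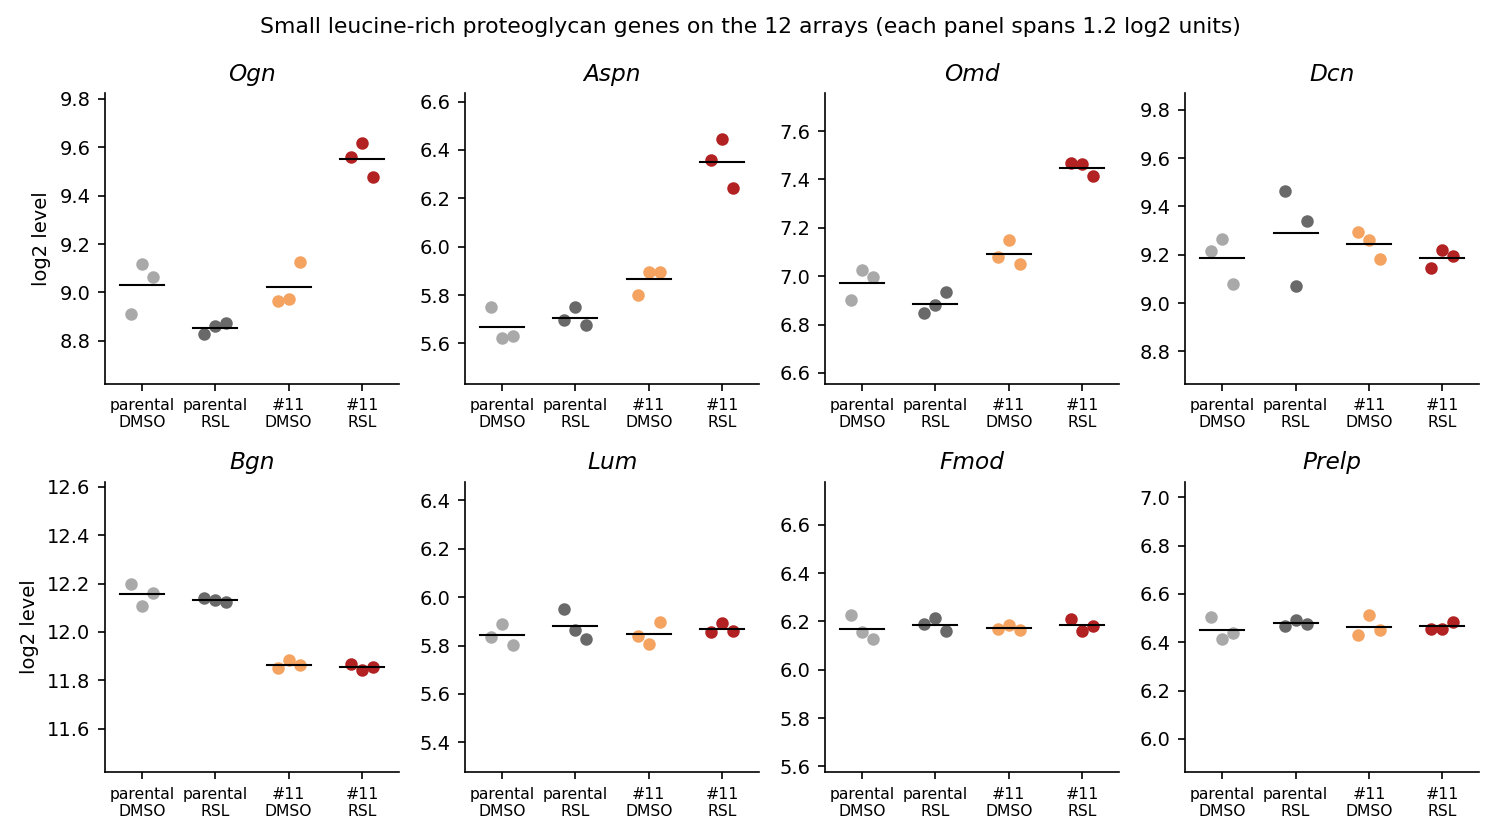
Log2 level (y axis) of the 8 genes on each of the 12 arrays (points), by group (x axis); black lines are group means and every panel spans the same number of log2 units. The 3 #11 RSL arrays stand above all others for Ogn, Aspn and Omd, the 6 #11 arrays stand below the 6 parental arrays for Bgn, and Lum, Fmod and Prelp stay within a narrow band.

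Among the other members, Bgn, the probe set of biglycan, was at 12.20, 12.11 and 12.16 in parental cells with DMSO and 12.14, 12.13 and 12.12 with RSL. In #11 cells it was at 11.85, 11.88 and 11.86 with DMSO and 11.87, 11.84 and 11.86 with RSL. The lines were apart and the treatments overlapped within each line. Dcn, the probe set of decorin, which coats collagen fibrils, was at 9.21, 9.26 and 9.08 in parental cells with DMSO and 9.46, 9.07 and 9.34 with RSL. In #11 cells Dcn was at 9.29, 9.26 and 9.18 with DMSO and 9.14, 9.22 and 9.19 with RSL. All 4 groups of Dcn overlapped, and parental RSL had its widest spread (SD 0.20).

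Lum, Fmod and Prelp varied little, and the first 2 were near the floor of the arrays. Lum, a proteoglycan of cornea and skin, had group means between 5.84 and 5.88 and was below the tenth percentile on all 12 arrays. Fmod, a proteoglycan of tendon and cartilage, had means between 6.17 and 6.19 and was below the first quartile on all 12 arrays. Prelp, a matrix protein that anchors basement membranes to connective tissue, had means between 6.45 and 6.48 and was not below the first quartile on any array. Neighbouring groups overlapped for each of these 3 genes, and at the levels of Lum and Fmod the arrays could have missed a change.

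The first question was how RSL changed the genes in #11 cells. Ogn was higher with RSL by 0.53 on the log2 scale (SE 0.054), a fold of 1.44, Aspn by 0.48 (SE 0.049), a fold of 1.40, and Omd by 0.36 (SE 0.040), a fold of 1.28. These 3 of 8 members passed the adjusted p threshold of 0.05, where 2.54% of all probe sets did, and since the rule chose them on this contrast nothing is read from that count. By size of increase, Ogn, Aspn and Omd ranked 7, 9 and 20 of 16475. The rule used this contrast, so these ranks and the distance of the 3 genes from the other 5 follow from the choice. After Omd, the next member was Lum at 0.02 (SE 0.038). The other values were 0.01 for Fmod (SE 0.034), 0.00 for Prelp (SE 0.034), -0.01 for Bgn (SE 0.031) and -0.06 for Dcn (SE 0.072). The median over the 8 members was 0.02, beside 0.00 over all probe sets. In bulk RNA, more cells making a transcript and more transcript per cell cannot be told apart.

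The same contrast in parental cells had few calls anywhere. None of the 8 members passed, where 0.0303% of all probe sets did. Ogn was at -0.18 (SE 0.054), with no overlap between its parental groups, Omd at -0.09 (SE 0.040), Aspn at 0.04 (SE 0.049) and Dcn at 0.11 (SE 0.072), and the other 4 lay between -0.03 and 0.04. Ogn and Omd were past an unadjusted p of 0.05, as were 1599 of 16475 probe sets. A fit with array weights called Ogn (-0.21, adjusted p = 0.0464) and 106 of all probe sets. The difference of the RSL effects, #11 minus parental cells, was 0.70 for Ogn (SE 0.076), 0.45 for Aspn (SE 0.070) and 0.44 for Omd (SE 0.057), the values on which the rule rests. These 3 of 8 passed, where 0.662% of all probe sets did, and nothing is read from that count. For Ogn and Omd the parental values below 0 add to this difference, and for Aspn the parental value above 0 takes from it.

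**Figure D2:**
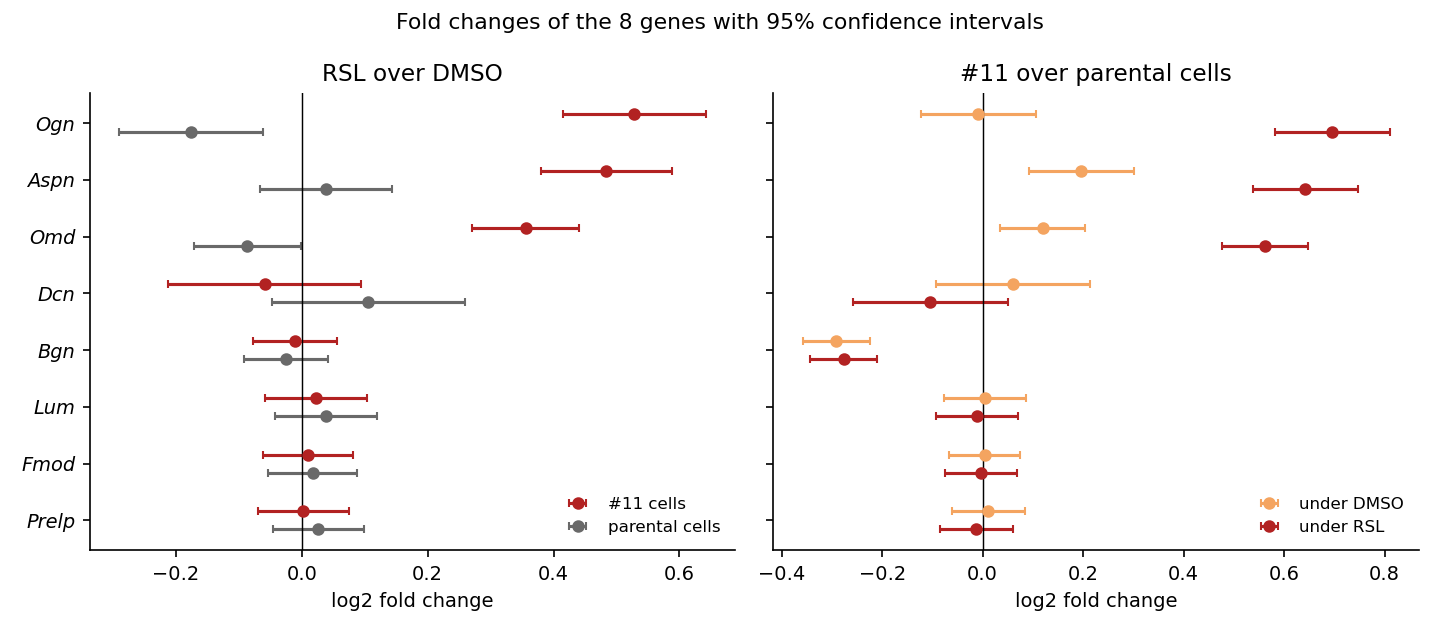
Log2 fold changes (x axis) of the 8 genes (y axis) with 95% confidence intervals, for RSL over DMSO in each cell line (left) and for #11 over parental cells under each treatment (right). Ogn, Aspn and Omd lie apart from 0 with RSL in #11 cells, where they were selected, and Bgn lies apart from 0 between the lines under both treatments.

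The second question was whether the members differed between the lines without ligand. The rule did not use this comparison, but it did use the DMSO arrays. Under DMSO, Bgn was lower in #11 cells, at -0.29 (SE 0.031, adjusted p = 2.17e-06), a fold of 0.817, and Aspn was higher by 0.20 (SE 0.049, adjusted p = 0.0056). All 6 DMSO arrays were below the tenth percentile for Aspn, so this difference lies near the arrays' floor and its size is uncertain. Omd was higher by 0.12 (SE 0.040, adjusted p = 0.0321), a fold of 1.09. Ogn did not differ beyond the spread, at -0.01 (95% interval -0.12 to 0.11, adjusted p = 0.934), nor did Dcn, at 0.06 (-0.09 to 0.21), Lum, at 0.01 (-0.08 to 0.09), Fmod, at 0.00 (-0.07 to 0.07), or Prelp, at 0.01 (-0.06 to 0.08). In all, 3 of 8 members were called, a share near the 29.7% called over all probe sets. These DMSO arrays are also the baseline of the RSL effects on which Ogn, Aspn and Omd were chosen. The adjusted p of these 3 genes under DMSO are therefore a description and not a test.

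The call of Omd rested on single arrays. It was lost without parental DMSO replicate 1 (0.08, adjusted p = 0.151), without #11 DMSO replicate 1 (0.13, adjusted p = 0.0572), without #11 DMSO replicate 2 (0.09, adjusted p = 0.163), and in a fit of only the 6 DMSO arrays (adjusted p = 0.0535). Aspn and Bgn were called under every alternative that could give a value, with adjusted p up to 0.0293 and 6.85e-05.

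Under RSL the chosen genes were higher in #11 cells. Ogn was higher in #11 cells by 0.70 (SE 0.054), Aspn by 0.64 (SE 0.049) and Omd by 0.56 (SE 0.040), and these values, which sum the DMSO difference and the difference of the RSL effects, are given without a test. Bgn was lower, at -0.28 (SE 0.031, adjusted p = 3.21e-06), close to its value under DMSO, and the difference of its RSL effects was 0.01 (95% interval -0.08 to 0.11). Dcn was at -0.10 (-0.26 to 0.05, adjusted p = 0.297), and without parental RSL replicate 2, its lowest array in that group, it was lower, at -0.21 (adjusted p = 0.00781). Lum, Fmod and Prelp were between -0.01 and 0.00. Bgn was thus the 1 called of the 5 members that the rule did not select on these arrays, where 34.2% of all probe sets were called.

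The position of the genes was not used by the rule. In the RefSeq annotation of GRCm38.p6, Ecm2, Aspn, Omd and Ogn follow each other on chromosome 13, all within the span of Cenpp, which encodes a centromere protein. Ecm2, a matrix protein with the same leucine-rich repeats, was below the first quartile on all 12 arrays and had an RSL effect of 0.05 in #11 cells (SE 0.031). Cenpp was at 0.04 (SE 0.047). Of the 12 nearest genes with a probe set, 6 on each side, none was called with RSL in either line by limma. Over all probe sets 2.54% were called in #11 cells and 0.0303% in parental cells. Unadjusted p was under 0.05 for 0 of the 12 in #11 and 4 in parental cells, and for 2031 and 1599 of 16475 probe sets. In #11 cells the values of the 12 ran from -0.07 for S1pr3, a sphingosine phosphate receptor, to 0.07 for Spin1. Next to Ogn, Nol8 was at 0.04 (SE 0.047). Between the lines under DMSO, Cenpp was lower in #11 cells, at -0.27 (SE 0.047, adjusted p = 0.000268), Iars, an isoleucine tRNA synthetase, at -0.26 (SE 0.038, adjusted p = 4.46e-05) and Fbxw17, at -0.19 (SE 0.045, adjusted p = 0.00358). No other of the 12 was called there, where 29.7% of all probe sets were, and nothing is read from these calls.

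The other members have SLRP neighbours as well. Dcn and Lum are followed on chromosome 10 by Kera, keratocan of the cornea, and Epyc, epiphycan of cartilage, both below the first quartile on all 12 arrays, with RSL effects of 0.05 (SE 0.045) and -0.05 (SE 0.040) in #11 cells. On chromosome 1, Optc, opticin of the eye, Prelp and Fmod follow each other. Optc was below the first quartile on all 12 arrays, at -0.06 (SE 0.035). None of the 24 neighbours on these chromosomes was called with RSL in either line, where 2.54% of all probe sets were in #11 and 0.0303% in parental cells. Unadjusted p was under 0.05 for 2 in #11 and 1 in parental cells, and for 2031 and 1599 of 16475 probe sets. Btg2, an antiproliferative gene next to Fmod, was higher in #11 cells under DMSO by 0.22 (SE 0.040, adjusted p = 0.000426). Anapc15-ps was also called higher there, and Ube2n, Eea1, Mrpl42 and Snrpe were called lower. No other of these neighbours was called, where 29.7% of all probe sets were, and nothing is read from these calls.

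**Figure D3:**
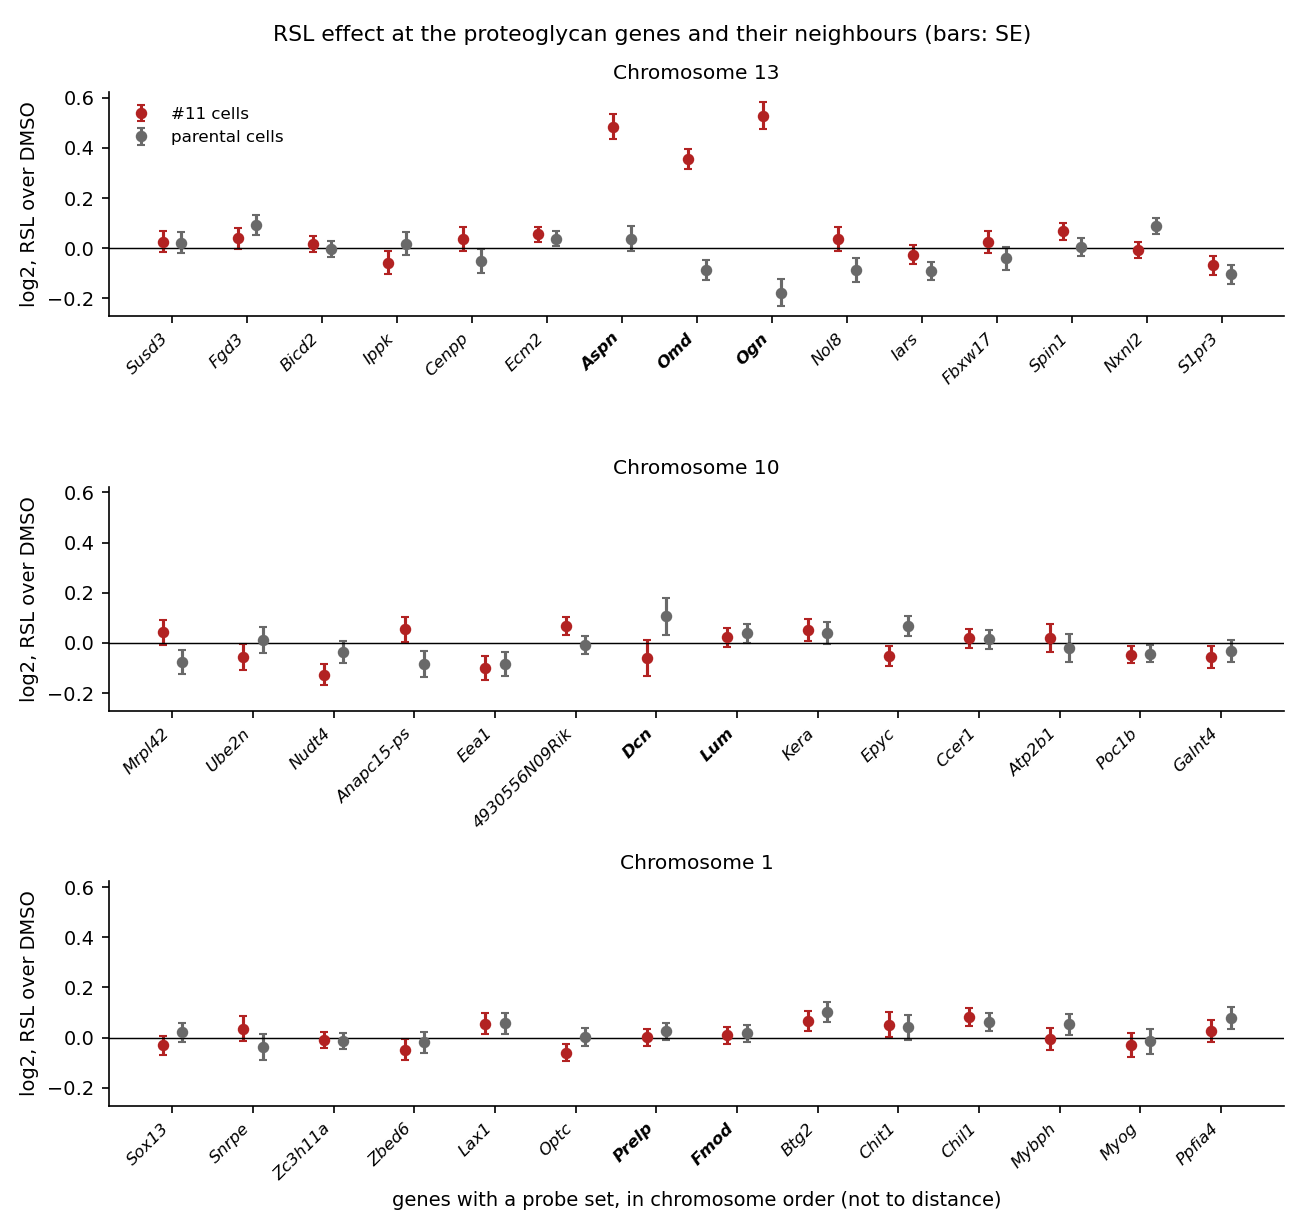
RSL effect (y axis, log2 fold change of RSL over DMSO, bars are SE) in #11 and parental cells for the proteoglycan genes (bold) and up to 6 genes with a probe set on each side, in chromosome order and not to distance (x axis). Aspn, Omd and Ogn stand between 0.36 and 0.53 in #11 cells, and their neighbours on chromosome 13 lie between -0.07 and 0.07.

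The 3 chosen genes varied together over the arrays, as their choice implies. Pearson's r over the 12 arrays was 0.91 for Ogn and Aspn, 0.95 for Ogn and Omd and 0.94 for Aspn and Omd. After each group's mean was subtracted, r was 0.10, 0.42 and -0.13 in the same order, so the likeness lay in the group means. The arrays of a group share their cell line and treatment, and r is a description over 12 points.

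By the same measure the 5 named genes most like each of them overlapped. Nadk2, the mitochondrial NAD kinase, was among the 5 for all 3 genes (r of 0.96 with Ogn, 0.96 with Aspn and 0.98 with Omd) and had an RSL effect of 0.56 in #11 cells (SE 0.056) and -0.07 in parental cells. Pik3r3, a regulatory subunit of phosphoinositide kinases, was among the 5 for Ogn (0.96) and Omd (0.98). The rest were Ifi30, a lysosomal thiol reductase, at 0.97, Ercc4, a DNA repair endonuclease, and Tln2, a talin, for Ogn. For Aspn they were Tmem119, a membrane protein known from bone-forming cells and microglia, at 0.97, Il6st, the shared receptor of the interleukin-6 family, Slc25a45 and Lgals3bp. For Omd they were Rdh11, a retinol dehydrogenase, Idh1, isocitrate dehydrogenase, and Tob1.

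The further SLRP family members with a probe set, Ecm2, Kera, Epyc, Optc, Chad, Nyx and Podn, gave no call in any of the 5 comparisons, and none had an unadjusted p under 0.05. These are 7 of the 10 listed. Over all probe sets 2.54% were called with RSL in #11 cells, 0.0303% with RSL in parental cells and 0.662% for the difference. Between the lines 29.7% were called under DMSO and 34.2% under RSL. Ecm2, Kera, Epyc and Optc were below the first quartile on all 12 arrays, where the arrays could have missed a change. Their median RSL effect was 0.01 in #11 cells and 0.04 in parental cells, beside 0.00 and 0.01 over all probe sets.

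Of the genes that build the sulfated chains, 1 of 23 measured genes of chondroitin and dermatan sulfate synthesis was called with RSL in #11 cells. So was 1 of 11 of keratan sulfate synthesis and tyrosine sulfation, where 2.54% of all probe sets were. None was called in parental cells, where 0.0303% of all probe sets were. Unadjusted p was under 0.05 there for 4 and 1 list genes, and for 1599 of 16475 probe sets. Fut8, the core fucosyltransferase of N-glycans, was at 8.93, 8.89 and 8.86 with DMSO and 9.17, 9.13 and 9.10 with RSL in #11 cells, higher by 0.24 (SE 0.041, adjusted p = 0.00393). Chst12, a chondroitin 4-sulfotransferase, was at 8.29, 8.32 and 8.16 with DMSO and 8.41, 8.44 and 8.46 with RSL, higher by 0.18 (SE 0.041, adjusted p = 0.0268). The call of Chst12 was lost without any 1 of #11 DMSO replicates 1 and 3 and the 3 #11 RSL replicates (0.13 to 0.20, adjusted p = 0.0582 to 0.117). The median RSL effect of the first list was 0.00 in #11 cells and -0.01 in parental cells, and that of the second 0.01 and 0.03, beside 0.00 and 0.01 over all probe sets.

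Between the lines under DMSO, 10 of the 23 chondroitin and dermatan sulfate genes differed, 5 in each direction, where 29.7% of all probe sets did. Csgalnact1, the transferase that starts the chondroitin chain, was lower in #11 cells, at -0.80 (SE 0.040, adjusted p = 2.26e-10) and Chst7, a 6-sulfotransferase, at -0.29 (SE 0.039, adjusted p = 2.04e-05). Papss2, which makes the sulfate donor, was higher by 0.27 (SE 0.034, adjusted p = 9.4e-06) and Chst11, a 4-sulfotransferase, by 0.26 (SE 0.042, adjusted p = 0.000132). Of the 11 keratan sulfate and tyrosine sulfation genes, 2 were higher and 2 lower.

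Among proteases known to process or cleave SLRPs, 3 of 12 were called with RSL in #11 cells, where 2.54% of all probe sets were. Adamts5, an aggrecanase, had log2 levels of 7.99, 7.99 and 7.95 with DMSO and 8.28, 8.33 and 8.21 with RSL in #11 cells, higher by 0.30 (SE 0.041, adjusted p = 0.000704). Adamts1, a protease of the same family, was at 9.06, 9.02 and 8.99 with DMSO and 9.34, 9.32 and 9.24 with RSL, higher by 0.28 (SE 0.052, adjusted p = 0.00704). For both genes the RSL arrays of #11 cells lay above all others, as for Ogn, Aspn and Omd. Chst12 and, from a list below, Ccn2 had the same order. The share of all probe sets with this order was not counted, so nothing is read from it. The parental values were -0.04 for Adamts5 (SE 0.041) and -0.14 for Adamts1 (SE 0.052), and the RSL effects of the lines differed by 0.33 (SE 0.057, adjusted p = 0.0108) and 0.42 (SE 0.074, adjusted p = 0.0112).

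Mmp3, stromelysin, went the other way. It was at 10.15, 10.27 and 10.23 with DMSO and 9.92, 9.97 and 9.97 with RSL in #11 cells, lower, at -0.26 (SE 0.043, adjusted p = 0.00283). In parental cells it was at 9.00, 9.16 and 9.12 with DMSO and 9.41, 9.36 and 9.40 with RSL, higher by 0.29 (SE 0.043, adjusted p = 0.0209), the only list gene called there. The parental call was lost without parental DMSO replicate 3 or any of the 3 parental RSL replicates (0.28 to 0.31, adjusted p = 0.073 to 0.116) and in a fit of the 6 parental arrays alone (adjusted p = 0.0684). The RSL effects of the lines differed, at -0.56 (SE 0.061, adjusted p = 0.000262). Under DMSO, Mmp3 was higher in #11 than in parental cells by 1.12 (SE 0.043, adjusted p = 6.34e-12), and 8 of the 12 proteases differed, 5 higher and 3 lower, where 29.7% of all probe sets did. Bmp1, which removes the propeptide of biglycan, was lower, at -0.28 (SE 0.039, adjusted p = 2.64e-05), beside Bgn itself at -0.29.

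**Figure D4:**
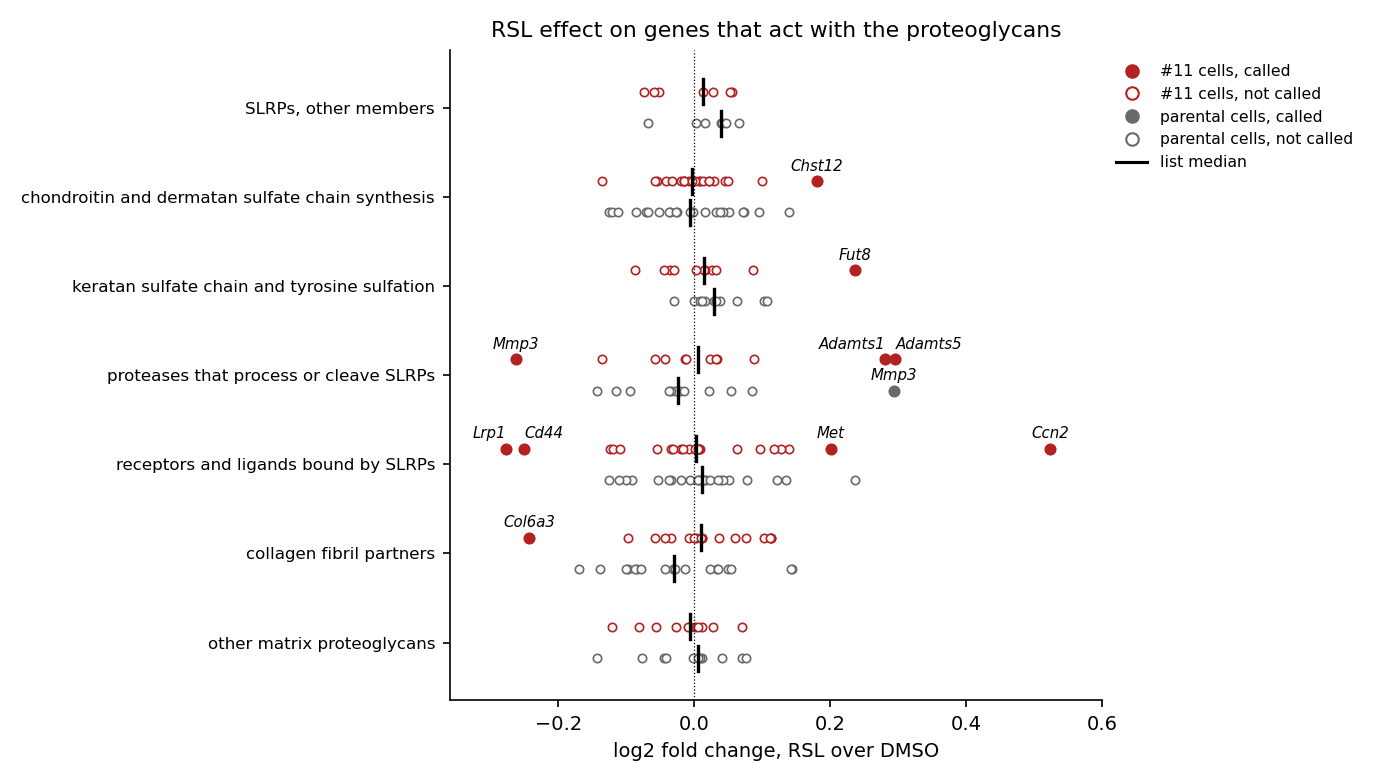
RSL effect (x axis, log2 fold change of RSL over DMSO) of each measured gene in 7 lists of genes that act with the proteoglycans (y axis), in #11 cells (upper row of each pair) and parental cells (lower row). Filled points passed the adjusted p threshold and carry their names, open points did not, and black bars are list medians, which lie near 0 for every list.

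Of 24 receptors and ligands that SLRPs are known to bind, 2 were higher and 2 lower with RSL in #11 cells, where 2.54% of all probe sets were called. In parental cells 0 were called, where 0.0303% of all probe sets were. There 6 of the 24 were at an unadjusted p under 0.05, as were 1599 of 16475 probe sets. Ccn2, connective tissue growth factor, which binds decorin, was at 11.15, 11.15 and 11.11 with DMSO and 11.65, 11.62 and 11.71 with RSL, higher by 0.52 (SE 0.053, adjusted p = 3.71e-05). Its parental value was 0.24 (SE 0.053), with levels of 10.99, 11.15 and 11.13 with DMSO and 11.44, 11.33 and 11.20 with RSL, and the difference between the lines, 0.29 (SE 0.075, adjusted p = 0.114), was not called. Cd44, the hyaluronan receptor, was lower in #11 cells, at -0.25 (SE 0.033, adjusted p = 0.000371), from 11.13, 11.12 and 11.05 to 10.86, 10.88 and 10.81. For neither gene did the #11 groups overlap.

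Met and Lrp1 were close to the threshold. Met, the hepatocyte growth factor receptor, was higher by 0.20 (SE 0.046, adjusted p = 0.028), and its call was lost without #11 DMSO replicate 2 or 3 or #11 RSL replicate 1 or 2 (0.17 to 0.21, adjusted p = 0.0558 to 0.148). Lrp1, an endocytic receptor for decorin, was lower, at -0.28 (SE 0.068, adjusted p = 0.0376), and its call was lost without parental RSL replicate 1, #11 DMSO replicate 1 or 2 or any #11 RSL replicate (-0.28 to -0.18, adjusted p = 0.0528 to 0.168). Tgfb3 was not called in either line, at 0.12 in #11 cells (SE 0.037) and -0.13 in parental cells (SE 0.037), while the difference was called (0.24, SE 0.052, adjusted p = 0.0405) and was lost without any 1 of the 12 arrays except parental DMSO replicate 3, parental RSL replicate 3 and #11 RSL replicate 3 (0.22 to 0.26, adjusted p up to 0.126). Under DMSO, 6 of the 24 were higher in #11 cells and 5 lower, where 29.7% of all probe sets differed, among them Ccn4, a relative of Ccn2, at 0.45 (SE 0.056, adjusted p = 9.49e-06), Tgfbr2 at 0.29 (SE 0.030, adjusted p = 1.33e-06), Tgfb3 at -0.39 (SE 0.037, adjusted p = 4.58e-07) and Tgfb1 at -0.21 (SE 0.036, adjusted p = 0.000205).

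The collagens and other fibril proteins to which SLRPs attach showed 1 call of 18 with RSL in #11 cells, where 2.54% of all probe sets were called. Col6a3, a chain of type VI collagen, was at 10.71, 10.66 and 10.55 with DMSO and 10.42, 10.37 and 10.39 with RSL, lower, at -0.24 (SE 0.046, adjusted p = 0.00776), and the call was lost without #11 DMSO replicate 1 (-0.21, adjusted p = 0.0575). None was called in parental cells, where 0.0303% of all probe sets were. There 7 of the 18 were at an unadjusted p under 0.05, as were 1599 of 16475 probe sets. Under DMSO, 8 of the 18 were higher and 3 lower in #11 cells, where 29.7% of all probe sets differed. Col5a2 by 0.76 (SE 0.031, adjusted p = 1.39e-11), Col5a1 by 0.43 (SE 0.035, adjusted p = 9.13e-08) and Col1a1 by 0.73 (SE 0.061, adjusted p = 1.23e-07) were higher, and Col6a1 was lower, at -0.39 (SE 0.035, adjusted p = 3.1e-07). Of 11 other matrix proteoglycans, such as versican and perlecan, none was called with RSL in either line. In each line 1 was at an unadjusted p under 0.05, beside 2031 of all probe sets in #11 and 1599 in parental cells.

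Markers of tissues rich in these proteoglycans were looked at beside the results. Of the 6 measured osteoblast markers 2 were below the first quartile on all 12 arrays, as were 2 of 8 chondrocyte and 5 of 8 tendon markers, the last list holding Fmod and Egr1. The summed log2 levels of the osteoblast list ran from 37.6 to 38.0 in #11 cells with RSL and from 37.7 to 37.8 with DMSO, and those of the chondrocyte list from 52.1 to 52.2 and from 52.0 to 52.3. The tendon sums were 52.8 to 53.7 with RSL and 53.7 to 54.5 with DMSO, the list that holds Egr1. Of the 6 measured adipocyte markers, 1, Adipoq, was below the first quartile on all 12 arrays. With RSL in #11 cells 2 of the 6 were called, where 2.54% of all probe sets were. Both were higher: Fabp4 (0.27, SE 0.047, adjusted p = 0.00436) and Lipe (0.18, SE 0.039, adjusted p = 0.0221). The other 4 were not called, at 0.08 for Cebpa (SE 0.067), 0.02 for Adipoq (SE 0.046) and 0.00 for Pparg (SE 0.043) and Lep (SE 0.042). The sums of the list were 38.4 to 38.8 in #11 cells with RSL and 37.6 to 38.2 in the other 3 groups, and their part in the result was not tested. Of 8 markers each of macrophages, epithelium and endothelium, 2, 4 and 5 were below the first quartile on all 12 arrays.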

How the data were processed

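RNA of 12 cell samples was hybridized to Affymetrix mouse expression arrays. The deposited log2 values were made by the authors with RMA background correction and quantile normalization, on a custom chip definition with 1 probe set per Entrez gene. The log base was not stated and was taken as 2 from the range of the values, and no source used here names the probe summary. Quantile normalization gives every array nearly the same distribution, so a change shared by most genes cannot be seen. Low values are compressed toward the background, and the number of arrays limits the precision. The table held 16539 probe sets. Hybridization controls (64) were left out, 16475 were tested, and 15780 of these had 1 gene symbol and 695 had none in the platform annotation.

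One fit of 4 group means (limma 3.58.1, R 4.3.3, lmFit and eBayes, 8 residual degrees of freedom) gave 5 contrasts: RSL over DMSO in each line, the difference of these, and #11 over parental cells under each treatment. Calls are at an adjusted p of 0.05 (Benjamini-Hochberg over all 16475). Whether replicate numbers pair the samples was not settled, and no block was used in this fit. The settings also tried were a filter on low values, the replicate number as a block, an intensity trend and array weights. Further settings were other scalings, fits of the compared groups alone and each array left out. A one-way analysis, the kind that the methods name, was also run on the #11 arrays alone. The fit was tested on simulated data.

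The members, gene lists and tests were chosen with earlier results of these data known. Named are the members, list genes called in any contrast (smallest p first), the 5 genes with the highest Pearson correlation with Ogn, Aspn and Omd over the arrays, and chromosome neighbours. Ier2 is named as a check of the labels, and Egr1 beside it as an immediate early gene. List members are called by the fit over all probe sets, with no set test. Promoter sequences are from RefSeq, GRCm38.p6, and the gene order is from the same assembly.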

Additional observations from a re-analysis of the deposited data

Results flagged for a closer look

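By the limma fit, the RSL effect differed between #11 and parental cells at 9 genes, among the proteoglycans, list genes, markers, Ier2 and Egr1. It also differed at 7 of the genes named for their correlation with Ogn, Aspn and Omd. Over all 16475 probe sets 109 (0.662%) were called, and nothing is read from the counts of 9 and 7. For Ogn (0.70), Aspn (0.45) and Omd (0.44) this difference, on the log2 scale, is what chose them and is not a test. Mmp3 was lower with RSL in #11 cells and higher in parental cells, a difference of -0.56 (adjusted p = 0.000262). Adamts1 had a difference of 0.42 (adjusted p = 0.0112). Adamts5 had a difference of 0.33 (adjusted p = 0.0108). Tgfb3 had a difference of 0.24 (adjusted p = 0.0405), with no call in either line alone. Egr1 had a difference of -1.97 (adjusted p = 0.000262), from -1.18 in #11 cells and 0.78 in parental cells (SE 0.14 each), the latter not called. Between the lines under DMSO it was at 1.76 (adjusted p = 9.68e-08). Ier2, the gene of the construct, had a difference of -0.64 (adjusted p = 0.000262). The 7 correlated genes were picked for their likeness to the chosen genes over the same arrays, so their differences are a description and not a test: 0.63 for Nadk2, 0.46 for Tmem119, 0.26 for Pik3r3, 0.26 for Rdh11, 0.25 for Ifi30, 0.23 for Lgals3bp and 0.21 for Tln2.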

How the results depend on the processing

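The members' calls changed in few settings. With RSL in #11 cells Ogn, Aspn and Omd were called in every refit of the linear model that could give a value. The 3 genes were chosen on this contrast in these arrays, so their calls describe the same values and add no support. The paper's methods name a one-way analysis at a nominal p. A one-way analysis run here on the 6 #11 arrays called 3 members and 1913 probe sets at a nominal p. After adjustment, which the methods do not name, it called 0 members and 1 probe set of 16475. In parental cells array weights called 1 member, Ogn (-0.21, adjusted p = 0.0464), where they called 106 of all probe sets against 5. Between the lines, the calls that changed are those of Omd under DMSO and Dcn under RSL given above. In 38 cases a value near 0 that no fit called changed sign. Without the lowest 40% of probe sets, Aspn, Lum, Fmod and Prelp had no value.

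The replicate block changed no member's call and gave 330, 4, 76, 4604 and 5314 calls over all probe sets for the 5 contrasts, against 418, 5, 109, 4885 and 5638. It ended the calls of Lrp1 with RSL in #11 cells (adjusted p = 0.0591) and of the Tgfb3 difference (adjusted p = 0.0801). Deviations of same-numbered arrays correlated between -0.30 and 0.22. Arrays of different numbers were not compared, so whether the numbers pair the samples was not settled. Over all probe sets the RSL calls in #11 cells rose to 736 with array weights and fell to 204, 213 and 227 without #11 DMSO replicate 1, #11 DMSO replicate 2 or #11 RSL replicate 1. The difference of the RSL effects gave 375 calls with array weights and 56 to 144 with an array left out, and the parental effect 1 to 12. The settings for the gene lists were added after the data were seen, and each list's count stayed within 1.5 times or moved by at most 2 genes. Arrays below the tenth percentile limit what can be seen for Aspn and Lum.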
